A study of Homo sapiens with 6 samples.

Results

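The V-ATPase and the enzymes and membrane proteins of the lysosome were followed in 786-O cells, an established human renal carcinoma line of the clear cell type, after an shRNA against PLEKHO1. The genes were chosen by symbol. V-ATPase subunits and accessory proteins were those with symbols that begin with ATP6V or ATP6AP, and cathepsins those with CTS and a letter. With 21 further named genes this gave 60 of the 18132 genes tested. ATP6V0A4 was not among the genes measured. Of the 60, 24 belong to the V-ATPase and 36 are other lysosomal genes. The samples were 6 single-colour Affymetrix arrays, 3 of cells that carried a control shRNA (shNC) and 3 of cells that carried one against PLEKHO1 (shPLEKHO1), both brought in by lentivirus into cells grown in RPMI 1640 with fetal bovine serum. The treatment field of the control arrays names the PLEKHO1 shRNA too, and the groups were taken from titles, source names and genotypes, which do not conflict with one another. The time after transduction, the number of hairpins and whether the cells were a clone or a pool were not given in the sources used here, nor whether the replicates come from different cultures. The p-values therefore rest on array-to-array spread alone, and that spread may be technical.

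Lysosomes are acid organelles in which hydrolases break down proteins, glycans, lipids and glycogen. Their acid is made by the V-ATPase, a rotary proton pump: a V1 head in the cytosol splits ATP and turns a shaft, and a V0 sector in the membrane passes protons as its ring turns. Many genes of the pump and of the hydrolases carry an E-box motif named CLEAR in their promoters, which the related transcription factors TFEB, TFE3 and MITF can bind.

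PLEKHO1 itself had intensities of 135, 143 and 126 with shNC and of 110, 116 and 97.4 with shPLEKHO1. The groups did not overlap, and the fall was 19.9% (log2 difference of -0.32 ± 0.08, SE, n = 3 arrays per group, limma adjusted p = 0.0123). An exact two-sided permutation test of 3 against 3 arrays gave p = 0.1, the smallest this design allows. Median intensity was between 55.7 and 57.1 on all 6 arrays. Of 11 markers fixed for a renal carcinoma line, 9 were measured, without CA9 and NDUFA4L2. All 9 were brighter than the median gene, from PAX2 (mean intensity 136 with shNC) to the intermediate filament gene VIM (14741). Of these 9, 3 rose and 3 fell, or 66.7% beside 34.1% of all genes tested. The falls were in CDH6 (1.95-fold lower), PAX2 (1.25-fold) and PAX8 (1.19-fold). The rises were in EPAS1 (1.45-fold higher), KRT18 (1.43-fold) and KRT8 (1.24-fold). The summed intensity of the 9 was 25975 to 26230 with shNC and 28218 to 28455 with shPLEKHO1. The part of these markers in the results that follow was not tested. The 12 measured markers of blood cells had summed intensities of 301 to 340 with shNC and 324 to 356 with shPLEKHO1. None of the 12 changed in limma, and 1 was higher at an unadjusted p under 0.05. PTPRC, the marker of all white blood cells, read 6.39 and 6.82 on average, below the median of 7.82 over the array's background probe sets.

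With shPLEKHO1, transcripts of the proton pump were mostly higher, while those of cathepsins and other hydrolases were mostly lower. The 8 lysosomal membrane proteins had no common direction (3 fell and 2 rose). Among the 24 V-ATPase genes 10 rose and 1 fell, and among the 36 other lysosomal genes 5 rose and 15 fell. "Rose", "fell" and "changed" mean an adjusted p under 0.05 in limma, adjusted over all 18132 genes, and each difference is the shPLEKHO1 mean less the shNC mean of quantile-normalized log2(intensity + 1). Over all genes tested 18.1% rose and 16% fell, 34.1% in all, and the median log2 difference was 0.01. The V-ATPase genes had a median of 0.14, and the other lysosomal genes one of -0.11. In total 31 of 60 members changed, or 51.7%. The members were brighter than most genes, with a median intensity of 498 against 81.7, and bright genes were called more often. A lack of calls among dim genes, such as most markers of other cell types here, therefore says little about whether they changed. Without the dimmest 30% of genes, 45.8% of genes had changed (24.3% rose and 21.5% fell), beside 31 of the 52 members left. Of those 52, the 19 V-ATPase genes still held 10 rises and 1 fall. Most changes were small: ATP6V1C1 was the only member with a change of at least 2-fold. On the normalized scale the 3 arrays of a group lay apart from the 3 of the other in 38 members (63.3%), beside 44.9% of all genes. Without the dimmest 30% of genes this held for 37 of 52 members (71.2%), beside 57.7% of genes. Those 52 members were still brighter, with a median intensity of 629 against 177, so neither comparison is matched for brightness. In RNA from a whole culture, fewer cells that express a gene and less of its RNA per cell cannot be told apart.

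**Figure D1:**
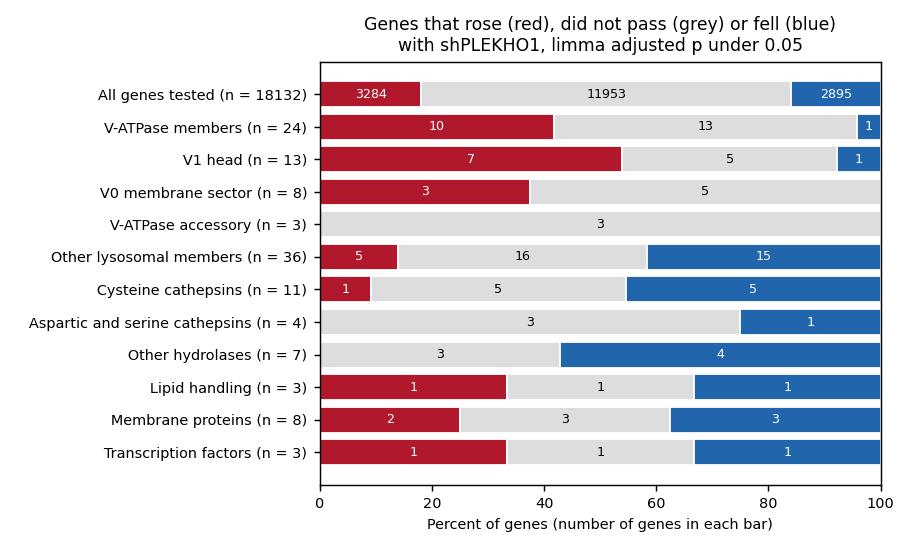
Percent of genes (x axis) that rose (red), did not pass (grey) or fell (blue) with shPLEKHO1 at a limma adjusted p under 0.05, for all 18132 genes tested and for each role of the members, with gene numbers in the bars. Rises outnumber falls in the V1 head (7 against 1) and the V0 sector (3 against 0), and falls outnumber rises in the cysteine cathepsins (5 against 1) and the other hydrolases (4 against 0).

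The 3 transcription factors went different ways. MITF, best known as a master regulator of melanocytes and also active in kidney cancers, read 591, 538 and 555 with shNC and 387, 426 and 387 with shPLEKHO1. All shPLEKHO1 arrays were below all shNC arrays, and both of its probe sets fell (-0.49 ± 0.05, 1.40-fold lower, adjusted p = 0.000126). TFE3, which shares the DNA-binding domain with MITF and is a fusion partner in a class of renal carcinomas, read 79.6, 83.6 and 90.1 with shNC and 116, 129 and 111 with shPLEKHO1. It rose (0.48 ± 0.07, 1.40-fold higher, adjusted p = 0.00083), and its dimmer probe set rose by 0.83 ± 0.08. TFEB, the factor most often tied to lysosome genes, varied more between arrays than between groups: 170, 265 and 246 with shNC against 236, 197 and 214 with shPLEKHO1. Its difference of -0.04 had a 95% confidence interval from -0.44 to 0.36, so these arrays leave room for a change of moderate size in either direction. Markers of melanocytes and osteoclasts, cells in which MITF is prominent, were dim: the 6 measured had summed intensities of 173 to 183 with shNC and 160 to 200 with shPLEKHO1, and none changed (0 also at an unadjusted p under 0.05).

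Promoter sequences from RefSeq (GRCh38.p14, 250 bases before to 50 after the gene start) were at hand for 43 of the 60 members. They were searched for the E-box CACGTG, for its extended form GTCACGTG on either strand, and for the full 10-base CLEAR palindrome, which is the extended form followed by AC; each longer motif contains the shorter, and the E-box and the palindrome read the same on both strands. The E-box was in 12 of 43 member promoters (27.9%), beside 10.9% of 14425 tested genes with an entry. The extended form was in 8 (18.6%, beside 4.21%), and the palindrome in 3 (6.98%, beside 0.66%). Many pump and hydrolase genes are already known to carry CLEAR, so higher shares among the members were likely in advance. These shares use no array values and are not a result of the knockdown. The 8 promoters with the extended form belong to genes that rose (ATP6V0B, ATP6V1G1), fell (CTSD, GAA, LAMP1) or did not pass (ATP6V0D1, CTSA, MCOLN1). A match describes the letters of the window and is not a measured binding site. Of the 43 members with an entry, 10 rose, 12 fell and 21 did not pass, and whether the motif goes with a direction was not tested. For each of the 8 promoters with the extended form, at least 1 window of 30 bases around a match is printed, gene strand 5′ to 3′. Capitals mark the motif with the flanking bases it shares with the palindrome.

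ATP6V1G1: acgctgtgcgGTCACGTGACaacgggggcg
ATP6V0B: ccggcgtgggGTCACGTGgtaccggcgcat
GAA, farther: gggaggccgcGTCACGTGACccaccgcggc
GAA, nearer: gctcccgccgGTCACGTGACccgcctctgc
LAMP1: accaggccggGTCACGTGggtccagggtca
CTSD: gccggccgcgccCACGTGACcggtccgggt
CTSA: gaggaagactGTCACGTGgcgccggagttc
MCOLN1: accagaggcgGTCACGTGAggggctctggg
ATP6V0D1: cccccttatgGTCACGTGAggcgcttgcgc

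All 9 windows lie before the gene start. The E-box began 58 bases before the start in ATP6V1G1 (chr9:114587699-114587728, plus strand) and 57 bases before it in ATP6V0B (chr1:43974891-43974920, plus strand), both of which rose. GAA carried the whole palindrome at 2 places, with the E-box 76 bases (chr17:80101493-80101522) and 31 bases (chr17:80101538-80101567, both plus strand) before the start. LAMP1 had 6 E-boxes in its 300 bases, of which the farthest is shown, 192 bases before the start (chr13:113297035-113297064, plus strand). In CTSD the E-box was 47 bases before the start (chr11:1763957-1763986, minus strand). CTSA had its window at chr20:45891281-45891310 (plus strand), MCOLN1 at chr19:7522571-7522600 (plus strand) and ATP6V0D1 at chr16:67481199-67481228 (minus strand), 42, 41 and 59 bases before the start. MCOLN1 also held the whole palindrome, with its E-box 14 bases before the start (chr19:7522598-7522627), in a window that runs past the start and is not printed. ATP6V0B and CTSA each had a second E-box, 39 and 25 bases before the start. That of CTSA was also the extended form, read on the other strand (chr20:45891298-45891327), and its window is not printed.

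In the V1 head, 7 of 13 genes rose and 1 fell. ATP6V1C1, the C subunit that holds the stalks of the head together and leaves it when the pump comes apart, was the member with the largest rise. It read 730, 715 and 752 with shNC and 1571, 1546 and 1545 with shPLEKHO1. The groups were far apart against a spread of 18.8 and 15.0 (SD), and the rise was 2.10-fold (1.07 ± 0.05, adjusted p = 4.51e-06). Of its 5 probe sets 4 rose, but unequally: those at 732 and 385 with shNC rose by 1.07 and 1.03, those at 205 and 199 by 0.32 and 0.30, and the fifth was dim. The mean over its probe sets was 0.55.

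ATP6V1A, the catalytic A subunit that splits ATP, went against the rest of the head. It read 775, 755 and 740 with shNC and 441, 471 and 454 with shPLEKHO1, so that every shPLEKHO1 array was lower. The fall was 1.66-fold (-0.73 ± 0.04, adjusted p = 1.35e-05). All 5 of its probe sets fell, by -0.62 to -0.78. Its partner in the ring of the head, the B subunit encoded by ATP6V1B2, read 890, 839 and 832 with shNC and 931, 972 and 960 with shPLEKHO1. It rose by a small amount (0.15 ± 0.04, adjusted p = 0.029), but leaving out any of the 6 arrays ended the call (adjusted p from 0.0575 to 0.0965), and the probe set that was brightest with shNC was at 0.00.

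The shaft and the outer stalks of the head were higher. ATP6V1D, a subunit of the central shaft, read 655, 622 and 650 with shNC and 932, 980 and 966 with shPLEKHO1. It rose 1.48-fold (0.57 ± 0.04, adjusted p = 4.84e-05), and all 3 probe sets rose. ATP6V1F, which sits on the same shaft, read 881, 812 and 833 against 1032, 1101 and 1043 (1.25-fold higher, adjusted p = 0.000762). Both genes had groups that did not overlap. The peripheral stalks are built of E and G subunits. ATP6V1G1 read 699, 633 and 617 with shNC and 860, 926 and 854 with shPLEKHO1 (1.35-fold higher, adjusted p = 0.000346), with 3 of 5 probe sets up and the rest dim. ATP6V1E1 read 1000, 954 and 1046 against 1181, 1225 and 1136 (1.17-fold higher, adjusted p = 0.0123). ATP6V1H, a subunit that curbs ATP splitting by free heads, was called at the edge of the threshold (0.15 ± 0.05, adjusted p = 0.0469). Its deposited values overlapped, with 509, 469 and 476 against 508, 559 and 554, and the call was lost when any of 5 of the 6 arrays was left out (adjusted p up to 0.146; only leaving out shPLEKHO1 replicate 1 kept it, at 0.033).

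The forms of V1 subunits that other tissues use were dim and did not pass. ATP6V1B1, the B subunit of acid-secreting intercalated cells of the kidney, read between 10.0 and 11.6 on all arrays. ATP6V1C2, ATP6V1G2 and ATP6V1G3 had mean intensities with shNC of 19.8, 18.4 and 9.92, and ATP6V1E2 one of 35.9. ATP6V1G3 was called without shNC replicate 2 (adjusted p = 0.0212). None of the 8 members among the dimmest 30% of genes was called, and 0 reached an unadjusted p under 0.05. Calls were rarer among dim genes in general: 34.1% of all genes changed, and 45.8% without the dimmest 30%. What change could be detected in these 8 was not tested. The 6 markers of intercalated cells, which include ATP6V1B1 and ATP6V0D2, had summed intensities of 103 to 114 with shNC and 101 to 114 with shPLEKHO1, and none changed (0 also at an unadjusted p under 0.05).

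Of 8 genes of the V0 sector 3 rose and none fell, where an unadjusted p under 0.05 was reached by 4 genes, of which ATP6V0D1 was lower. The proton-carrying ring is built of c-type subunits. ATP6V0B, the c'' subunit of the ring, read 1048, 1097 and 1068 with shNC and 1412, 1401 and 1336 with shPLEKHO1. It rose 1.29-fold (0.36 ± 0.05, adjusted p = 0.00131), and all 6 of its probe sets rose. ATP6V0C, the c subunit that makes up most of the ring, read 835, 797 and 804 against 959, 1012 and 980 (0.27 ± 0.04, 1.21-fold higher, adjusted p = 0.00159). Neither gene's groups overlapped. ATP6V0E1, a small subunit of the sector and the brightest V-ATPase gene, went from 3100, 2925 and 2944 to 3331, 3355 and 3303. Its rise of 0.17 ± 0.04 (adjusted p = 0.0162) was carried by 1 of 4 probe sets, and it was not called without shNC replicate 2 (adjusted p = 0.0559) or without shNC replicate 3 (0.0575).

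Among the a subunits, which form the proton path, and the d subunits, which couple ring to shaft, none with an ATP6V symbol passed, while TCIRG1 rose. ATP6V0A1, an a subunit, read 79.6, 113 and 104 against 121, 120 and 106, with the interval of the difference from -0.05 to 0.53. ATP6V0A2, the a subunit of Golgi and endosomes, had a difference of 0.07 ± 0.06, with 1 of 3 probe sets down. ATP6V0D1, the coupling d subunit, was lower on every shPLEKHO1 array, with 502, 456 and 444 against 401, 419 and 436, but missed the threshold (-0.16 ± 0.05, adjusted p = 0.0615; called in 4 of 15 alternatives). ATP6V0E2 and the dim ATP6V0D2 were at -0.01 and -0.04. TCIRG1, the a3 subunit of lysosomes and osteoclasts whose symbol lies outside the ATP6V pattern, read 242, 238 and 243 with shNC and 323, 346 and 325 with shPLEKHO1. It rose 1.38-fold (0.46 ± 0.04, adjusted p = 0.000119), with both of its probe sets. None of the 3 accessory genes passed in limma, and 2 were lower at an unadjusted p under 0.05: ATP6AP2, the prorenin receptor, was at -0.16 ± 0.06, ATP6AP1 at -0.05 ± 0.04 and ATP6AP1L at -0.24 ± 0.10.

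**Figure D2:**
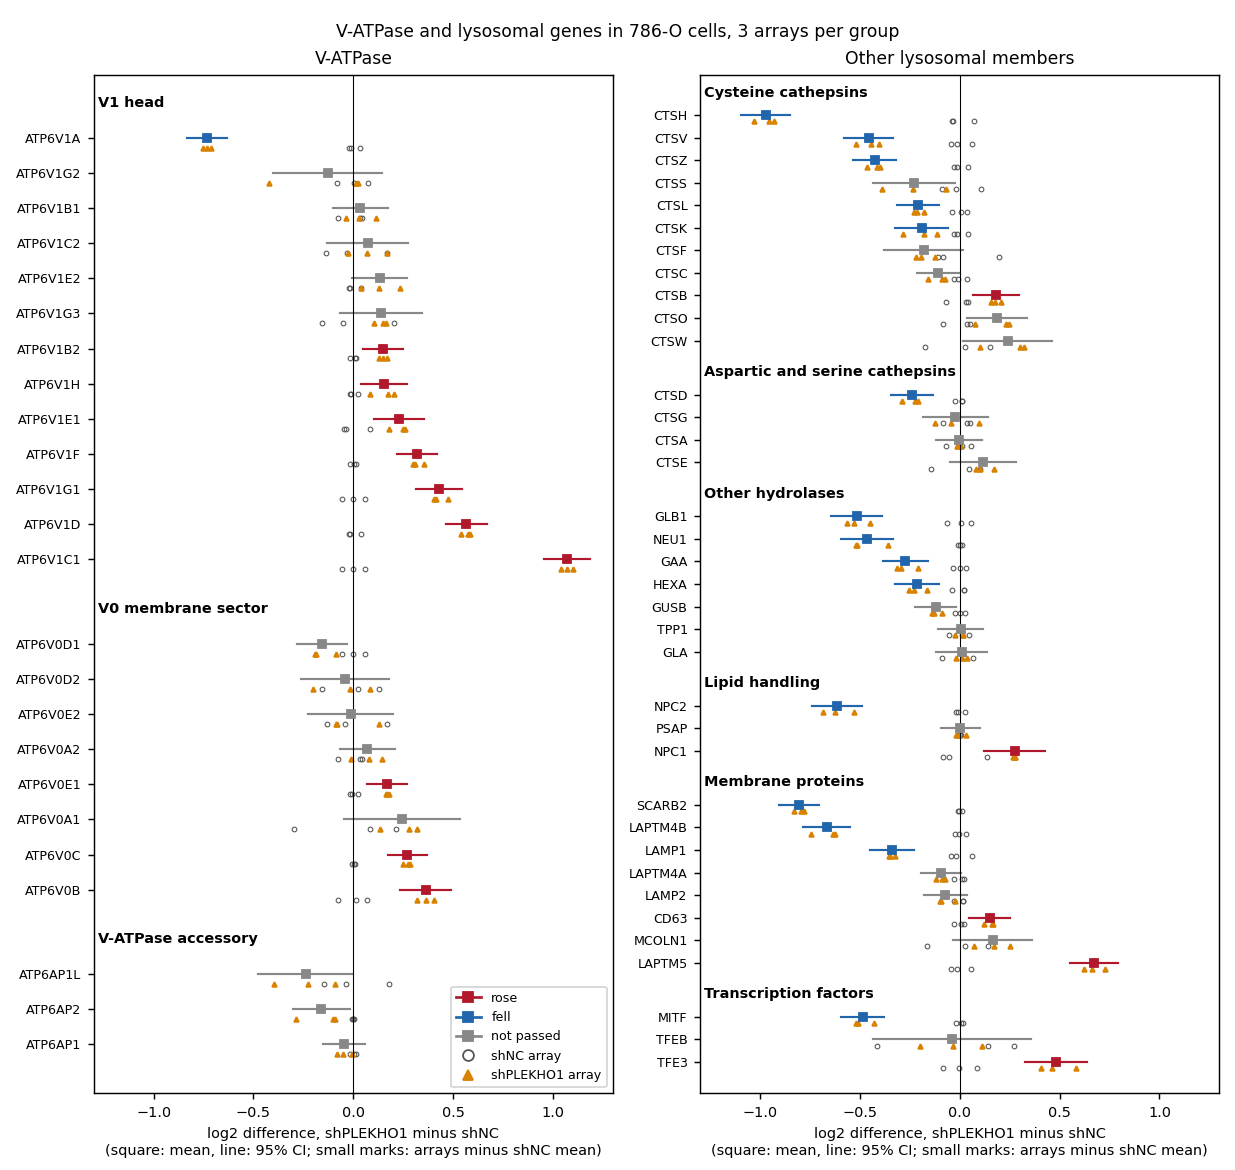
Log2 difference, shPLEKHO1 minus shNC, on the x axis for every member, grouped by role: squares are means, lines 95% confidence intervals from limma, open circles shNC arrays and triangles shPLEKHO1 arrays, each set against the shNC mean. ATP6V1C1 stands highest at 1.07 and CTSH lowest at -0.97, and ATP6V1A at -0.73 stands apart from the other V1 genes.

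A further list of 16 V-ATPase genes holds TCIRG1 and genes for assembly or regulation of the pump. Of its 13 measured genes 4 rose, TCIRG1 among them, and 2 fell. VMA21, a chaperone that assembles the V0 sector, went from a mean intensity of 605 ± 18.9 to 900 ± 6.33 (SD, n = 3) and rose 1.48-fold. NCOA7, a protein of the TLDc family that binds the pump, rose by 0.86 ± 0.04 with 3 of 5 probe sets up (mean of all 5, 0.50). TMEM9, a membrane protein that binds ATP6AP2, fell by 0.38 on the log2 scale with 4 of 5 probe sets down. The median of this list was -0.02, near that of all genes.

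Among 15 cathepsins 6 fell and 1 rose. CTSH, an aminopeptidase, fell furthest of all members, from 82.0, 81.9 and 89.1 with shNC to 41.6, 42.5 and 43.3 with shPLEKHO1. The groups were well apart (1.96-fold lower, -0.97 ± 0.05, adjusted p = 9.56e-06). Its second probe set, at an intensity of 17.4 with shNC, did not pass (0.06), and the mean of both was -0.46. CTSV, a close relative of cathepsin L, read 426, 383 and 382 against 285, 280 and 295, and all 3 probe sets fell (1.37-fold lower, adjusted p = 0.00035). CTSZ, a carboxypeptidase, read 340, 335 and 325 against 236, 254 and 248 (1.34-fold lower, adjusted p = 0.000242). In both genes every shPLEKHO1 array was below every shNC array.

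The abundant cathepsins moved less. CTSD, the main aspartic protease of lysosomes, read 1935, 1884 and 1889 with shNC and 1638, 1679 and 1568 with shPLEKHO1. It fell 1.18-fold (-0.24 ± 0.05, adjusted p = 0.00419), with all 3 probe sets down and no overlap. CTSL, a broad endopeptidase, went from 885, 810 and 859 to 719, 752 and 747 (1.15-fold lower, adjusted p = 0.00843). CTSB, a cysteine protease that also trims peptides from their ends, was the only cathepsin that rose, from 1869, 1656 and 1803 to 2044, 2033 and 1987 (1.13-fold higher, adjusted p = 0.0252). That call was lost without shNC replicate 2 (adjusted p = 0.0834) and without shPLEKHO1 replicate 1, 2 or 3 (0.0793, 0.0552 and 0.0542), and with the mean of its 4 probe sets (0.11, adjusted p = 0.0787). CTSK, the collagen-cutting protease of osteoclasts, was dim at 33.9, 35.5 and 36.5 against 32.3, 28.3 and 32.4. Its fall (-0.19 ± 0.06, adjusted p = 0.0335) was lost when any of 5 of the 6 arrays was left out (adjusted p up to 0.111; without shPLEKHO1 replicate 3 it was 0.028).

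The other cathepsins did not pass. CTSC, which activates serine proteases of immune granules, was at -0.11 ± 0.05 by the probe set read, while its 2 others fell by -0.39 and -0.36, and the mean of all 3 was called (-0.29, adjusted p = 0.00336). CTSA, the serine carboxypeptidase that protects GLB1 and NEU1, read 1536, 1380 and 1500 against 1458, 1492 and 1484. Its difference of -0.01 had an interval from -0.12 to 0.11. CTSO (0.19), CTSS (-0.23) and CTSW (0.24) missed the threshold, and leaving out 1 array gave each a call: shPLEKHO1 replicate 2 for CTSO (adjusted p = 0.0242) and CTSS (0.026), and shNC replicate 2 (0.045) or shPLEKHO1 replicate 1 (0.0494) for CTSW. CTSO was called in 6 of the 15 alternatives in all, among them the mean of both probe sets (0.0357) and the fit with array weights (0.04), and CTSS in 2, the other with array weights (0.0323). CTSS and CTSW are known mainly from immune cells. The blood cell markers given above had a median intensity of 17.5, beside 81.7 for all genes, and none changed. What change could be detected at that brightness was not tested. CTSE, CTSF and CTSG were dim, with means of 15.8, 10.0 and 11.7 with shNC. Of 11 cystatins, the natural inhibitors of cysteine cathepsins, 3 rose and none fell; CSTB, an inhibitor in the cytosol, went from 3489 ± 81.0 to 3935 ± 40.2 (SD, n = 3; 1.13-fold higher). CST7 and CST1 were dim, at means of 19.4 and 18.2 with shNC. That of CST7 (adjusted p = 0.0319) was lost without shNC replicate 1 (0.097) or 2 (0.0696) or shPLEKHO1 replicate 2 (0.0749). That of CST1 (adjusted p = 0.05, just under the threshold before rounding) was lost in 10 of 14 alternatives, at up to 0.152, among them every left-out array but shPLEKHO1 replicate 3.

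Among 7 hydrolases outside the cathepsins 4 fell and none rose. GLB1, the beta-galactosidase of lysosomes, read 1136, 990 and 1052 with shNC and 728, 795 and 712 with shPLEKHO1. It fell 1.43-fold (-0.52 ± 0.05, adjusted p = 0.000222), and all 3 probe sets fell. NEU1, the sialidase that joins GLB1 and CTSA in a complex, read 298, 290 and 292 against 200, 232 and 201 (1.38-fold lower, adjusted p = 0.000418). HEXA, the alpha chain of beta-hexosaminidase, read 873, 788 and 830 against 702, 759 and 693 (1.16-fold lower, adjusted p = 0.00972), with 2 of 8 probe sets past the threshold and a mean of all 8 of -0.12. GAA, which degrades glycogen, was dimmer, at 47.2, 49.5 and 47.2 against 39.8, 40.9 and 38.0 (1.21-fold lower, adjusted p = 0.0033). The groups of these 4 genes did not overlap.

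The 3 hydrolases that were not called had intervals of similar width but differed in where these lay. GUSB, the beta-glucuronidase often used as a reference gene, was lower on every shPLEKHO1 array, 914, 831 and 853 against 783, 827 and 783. Its difference did not pass (-0.12 ± 0.04, unadjusted interval from -0.22 to -0.02, limma adjusted p = 0.0721). It was called in 4 of 15 alternatives, at an adjusted p down to 0.0106. GLA, the alpha-galactosidase, was at 0.01 with an interval from -0.12 to 0.14. TPP1, a tripeptidyl peptidase, was at 0.00 (from -0.11 to 0.11), although 2 of its 9 probe sets rose and their mean was called (0.11, adjusted p = 0.0433).

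Of 39 further lysosomal hydrolases and cofactors 31 were measured, and 14 fell and 3 rose, with a median of -0.12. SMPD1, acid sphingomyelinase, went from 102, 111 and 98.7 to 46.0, 51.1 and 43.6 (2.19-fold lower, -1.13 ± 0.07, adjusted p = 2.19e-05), measured by 1 probe set. MANBA, the beta-mannosidase, was 1.71-fold lower, and the acid nuclease DNASE2 was 1.59-fold lower. LGMN, the protease that processes cathepsins to their mature chains, went from 1046, 961 and 1057 to 680, 698 and 672 (-0.59 ± 0.05), with all 6 probe sets down. The groups of these 4 genes did not overlap, which was likely in advance, as they were named for the smallest p in this list. Of all genes tested, 44.9% had groups that did not overlap.

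The 3 genes that handle lipids inside the lysosome differed. NPC2, the soluble protein that hands cholesterol to the membrane, read 2374, 2184 and 2173 with shNC and 1451, 1417 and 1561 with shPLEKHO1. It fell 1.53-fold (-0.61 ± 0.05, adjusted p = 8.01e-05). Its second bright probe set fell less (-0.39), 2 dim ones did not pass, and the mean of all 4 was -0.22. NPC1, the membrane protein that takes cholesterol from NPC2, read 527, 439 and 436 against 554, 577 and 555 and rose 1.21-fold (0.27 ± 0.06, adjusted p = 0.0125), with both probe sets up. PSAP, the precursor of the saposins that present lipids to hydrolases, was the brightest member, at 4095, 4004 and 3996 against 4060, 4165 and 4084. Its difference was 0.00, with an interval from -0.10 to 0.10, and none of its 4 probe sets passed.

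**Figure D3:**
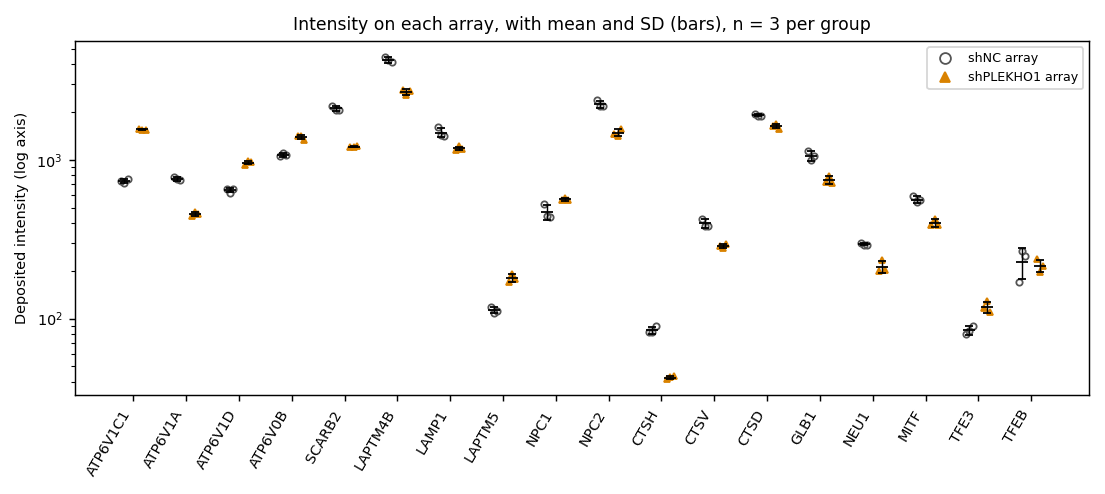
Deposited intensity on a log axis for 18 members, with open circles for the 3 shNC arrays, triangles for the 3 shPLEKHO1 arrays and bars for the mean and SD. ATP6V1C1 is higher with shPLEKHO1 while ATP6V1A drops from about the same intensity, NPC2 and NPC1 move in opposite directions, and the arrays of TFEB overlap.

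Among 8 lysosomal membrane proteins 3 fell and 2 rose. SCARB2, or LIMP-2, which carries glucocerebrosidase to lysosomes, read 2195, 2055 and 2064 with shNC and 1197, 1204 and 1219 with shPLEKHO1. The groups were far apart (1.75-fold lower, -0.80 ± 0.04, adjusted p = 8.26e-06). Its 4 probe sets did not agree: 3 fell, by -0.80 to -1.10, while one at an intensity of 957 with shNC was at 0.07 ± 0.05 (adjusted p = 0.29). LAMP1, with LAMP2 a main glycoprotein of the lysosomal membrane, read 1597, 1434 and 1417 against 1158, 1212 and 1168 (1.27-fold lower, adjusted p = 0.000864), and all 3 probe sets fell. LAMP2 itself was at -0.07 ± 0.05 and did not pass. Of its 9 probe sets 4 fell and 1 rose, so that LAMP2 was the only member whose probe sets were called in both directions. The one that rose read 440 with shNC and 524 with shPLEKHO1 (0.25 ± 0.05), and the mean of all 9 was -0.18 (adjusted p = 0.00936).

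The 3 LAPTM genes, which code for small lysosomal proteins that bind NEDD4 ligases, each did something else. LAPTM4B, amplified in several carcinomas, was the brightest of them, at 4446, 4219 and 4110 with shNC and 2737, 2551 and 2715 with shPLEKHO1. It fell 1.59-fold (-0.67 ± 0.05, adjusted p = 4.31e-05), with all 3 probe sets down by -0.67 to -0.83. LAPTM4A, its closest relative, was at 3906, 3815 and 3691 against 3497, 3579 and 3635 and did not pass (-0.09 ± 0.04, interval from -0.20 to 0.01), except with a variance trend and robust fit (adjusted p = 0.0103). LAPTM5, known mainly from blood cells, rose 1.59-fold, from 118, 109 and 112 to 171, 191 and 176 (0.67 ± 0.05, adjusted p = 4.43e-05). Its other probe set, of similar brightness at 102 with shNC, did not pass (0.13, adjusted p = 0.114), and the mean of both was 0.40. Of the 12 blood cell markers measured, 11 were dimmer than the median gene and none changed. Their differences were above 0 in 10 of the 12 (median 0.08, beside 0.01 over all genes). A lack of calls among genes so dim says little about whether they changed, and their bearing on LAPTM5 was not tested.

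CD63, a tetraspanin of late endosomes and exosomes, read 3569, 3526 and 3494 with shNC and 3963, 3978 and 3813 with shPLEKHO1. Both of its probe sets rose, but the rise was small (0.15 ± 0.04, adjusted p = 0.0325) and the call was lost when any 1 of the 6 arrays was left out (adjusted p from 0.0563 to 0.0956). MCOLN1, the calcium channel TRPML1, was at 200, 219 and 240 against 255, 234 and 242 and did not pass (0.16 ± 0.09), while its dimmer probe set rose by 0.39 ± 0.09.

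Among 29 further membrane proteins of lysosomes 7 rose and 6 fell, without a common direction (median 0.07). TMEM106B, a regulator of lysosome size and acidity, fell 1.49-fold by 3 of 5 probe sets; the other 2, at 514 and 503 with shNC, were at 0.12 each and did not pass, and the mean of all 5 was -0.33 against -0.57. The nucleoside transporter SLC29A3 fell 1.61-fold and the histidine and peptide transporter SLC15A4 fell 1.52-fold. MFSD8, a chloride channel of lysosomes, rose 1.35-fold by its brightest probe set, with 3 of 4 probe sets up and 1 down. Of 15 measured genes for sorting enzymes to lysosomes 6 fell and 4 rose, with 9 above 0 and a median of 0.08. GNPTAB, the enzyme that starts the mannose phosphate tag, went from 148 ± 2.30 to 96.7 ± 1.47 (SD, n = 3; 1.52-fold lower). Of its 4 probe sets 3 fell, and their mean was -0.38 against -0.60 for the one read. GNPTG, the partner chain of GNPTAB, rose with all 3 probe sets (0.19 ± 0.06, adjusted p = 0.0343); it is named after its value was seen. NAGPA, which completes the tag, was 1.57-fold lower by 1 of 2 probe sets, with a mean of both of -0.36 against -0.65. The sorting receptor SORL1 was 1.56-fold lower by both. The adaptor GGA3 was 1.37-fold lower by the probe set read, but 2 of 6 fell and their mean was -0.18 against -0.46.

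Of 16 measured regulators of lysosome signalling 5 rose and 2 fell. RRAGC, a GTPase that brings mTORC1 to the lysosome, rose 1.34-fold with all 4 probe sets, and LAMTOR4, of the Ragulator scaffold that holds it there, rose 1.28-fold. LAMTOR3 rose by its brighter probe set (0.46 ± 0.05), but its dim one fell (-0.67), and the mean of both was -0.10. The autophagy receptor SQSTM1 fell from 2291, 2110 and 2143 to 1696, 1690 and 1642 (1.31-fold lower). In all, 115 of 128 genes of these further lists were measured, and 26 rose and 30 fell. Together 48.7% changed, beside 34.1% of all genes and 45.8% without the dimmest 30%. By list the share was 46.2% (V-ATPase), 54.8% (hydrolases), 44.8% (membrane proteins), 66.7% (sorting), 43.8% (regulators) and 27.3% (cystatins).

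Over all members, 173 probe sets were on the array, and in a fit of each probe set on its own 38 rose and 44 fell, beside 33.0% called among all 44988 probe sets. Of 47 members with several probe sets, 14 had every probe set called in 1 direction, 17 had some called in 1 direction, 1 had calls in both (LAMP2) and 15 had none.

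**Figure D4:**
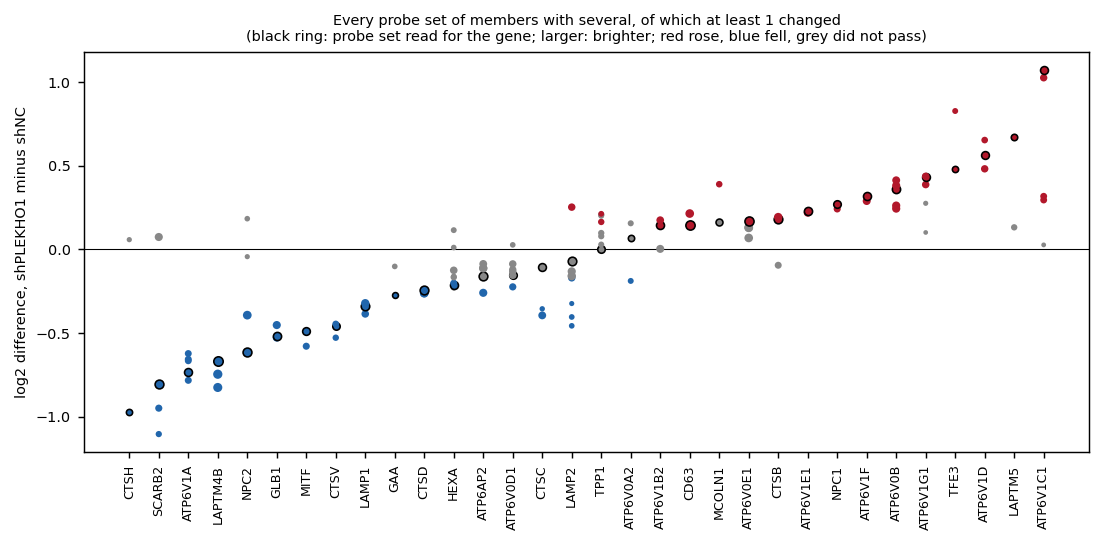
Log2 difference, shPLEKHO1 minus shNC (y axis), of every probe set of the 32 members with several probe sets of which at least 1 changed; the ring marks the probe set read for the gene, point size grows with brightness, and red rose, blue fell and grey did not pass. All 5 probe sets of ATP6V1A lie below 0 and all 6 of ATP6V0B above it, while those of SCARB2, LAMP2, CTSH and LAPTM5 are spread.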

How the data were processed

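Intensity values, 1 per probe set and array on a linear scale, were deposited by the authors. The submitters' processing notes name Expression Console, the Affymetrix software; which version and summary method it ran, and whether it scaled the arrays to each other, is not given in the sources used here. Of 49395 probe sets, 44988 that were not controls and had exactly 1 gene symbol in the platform's annotation were used, with symbols updated through the RefSeq gene table of GRCh38.p14 (44961 matched). A gene was read from the probe set with the highest mean over 6 arrays, after log2(intensity + 1) and quantile normalization, which gave 18132 genes. The pseudocount of 1 understates changes of dim genes. Groups of 3 arrays, few for precision, were compared with limma 3.58.1 (lmFit, eBayes; R 4.3.3). The model had no covariates, p-values were adjusted over all genes by the Benjamini-Hochberg method, and the threshold was 0.05. The fit was tested on simulated data with independent noise and far fewer changed genes than were called here. That test cannot show how the fit behaves when as many genes change as here. Every member is described, with up to 4 called genes of smallest p from each further lysosome list and TCIRG1. The members and lists were chosen with earlier results of these data known. List counts stand beside those of all genes, with no set test. Alternatives covered scaling, pseudocount, dim genes, probe sets, variance model, array weights, replicate number and each array left out. Promoter sequences came from RefSeq (GRCh38.p14).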

Additional observations from a re-analysis of the deposited data

How the results depend on the processing

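Of the 31 members called, 25 kept their call and direction in every one of the 15 alternatives in which they were measured, 6 lost it in at least 1 (ATP6V0E1, ATP6V1B2, ATP6V1H, CD63, CTSB and CTSK), and none of the 60 reversed with a call on either side. Of the 29 not called, 12 were called in at least 1. V-ATPase genes that rose numbered 7 to 10 and other lysosomal members that fell 14 to 18. The V-ATPase genes that fell, 1 as reported, were 2 with a pseudocount of 16 and without the dimmest 30% of genes (ATP6V0D1 added), and 3 with the mean of all probe sets and with a variance trend and robust fit (ATP6V0D1 and ATP6AP2 added). Other lysosomal members that rose, 5 as reported, numbered 3 with the replicate block and 3 to 4 when 1 array was left out, with 3 without shPLEKHO1 replicate 3. With a pseudocount of 16, without the dimmest 30% of genes, with a variance trend and robust fit or with array weights they numbered 6. The mean of all probe sets gave 7. LAMTOR3 reversed to -0.10 with the mean of its probe sets. Samples with the same replicate number did not deviate together (correlations of -0.16, -0.16 and -0.05, and 0 of 6 samples correlated best with their own number). With so few arrays per group, this cannot exclude that arrays of the same number were prepared together. With the replicate block 25 members and 5244 genes changed. The cause of these shifts was not tested. CSTB, outside the members, lost its call with the block (adjusted p = 0.0545). Of the 8 members among the dimmest 30% of genes 0 were called, and what change could be detected there was not tested.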
